A study of Mus musculus with 12 samples.

Results

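The transcripts described here are 7 regulators of G2 and mitosis, *Ccnb1*, *Ttk*, *Cdc25b*, *Cdc25c*, *Wee1*, *Stmn1* and *Hist1h3b*, chosen by name from the 770 gene probes of a NanoString® panel. All 7 were on the panel, and 6 of them were measured above the floor set here. The experiment silenced *Dusp4*, a phosphatase of MAP kinases, in a pair of murine hepatocellular carcinoma cell lines and compared the lines with each other. The total RNA of 12 samples was measured, and every one of the 4 groups had 3 biological replicates: AKT Cre/NRAS with *Dusp4* siRNA, AKT Cre/NRAS with the control pool (SCR), AKT/NRAS with *Dusp4* siRNA and AKT/NRAS with SCR. AKT/NRAS cells came from a tumour that grew after hydrodynamic injection of floxed, myristoylated AKT together with mutant NRAS, and AKT Cre/NRAS cells are the same line after transfection with Cre recombinase, which removed the AKT construct. Both lines thus carry the NRAS oncogene, and each genotype is represented by 1 line derived from 1 tumour, so genotype and line cannot be told apart. All cells, controls included, were transfected with an siRNA pool a first and a second time before harvest.

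Entry into mitosis is set by a kinase made of cyclin B1 and CDK1. WEE1 holds this kinase inactive by phosphorylating CDK1, and the CDC25 phosphatases remove that phosphate. TTK (MPS1) then starts the spindle checkpoint at unattached kinetochores, stathmin (*Stmn1*) destabilises microtubules until mitotic kinases inactivate it, and histone H3, made mostly in S phase, packs the chromosomes. Hepatocytes of the adult liver seldom divide, and these genes rise when liver cells or their tumours enter the cycle.

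Promoters of many genes of G2 and mitosis carry CCAAT boxes and a cell cycle element called CHR, and the windows below are shown so that the members can be compared in these features. The bases upstream of the first annotated start were taken from RefSeq windows (mouse build GRCm38.p6), and 3 motifs were searched on both strands and set in capitals: CCAAT for the box, TTTGAA for the CHR, and the CHR variant TTTAAA, which is its own reverse complement. Of the 7 members, 4 had a window (*Ccnb1*, *Ttk*, *Cdc25b* and *Hist1h3b*, which RefSeq lists as *H3c2*). *Cdc25c*, *Wee1* and *Stmn1* had none. The windows of *Ccnb1* (chr13:100786487-100786736, minus strand), *Ttk* (chr9:83834439-83834650, plus strand) and *Hist1h3b* (chr13:23752095-23752344, plus strand) read 5′ to 3′ as follows.
Ccnb1: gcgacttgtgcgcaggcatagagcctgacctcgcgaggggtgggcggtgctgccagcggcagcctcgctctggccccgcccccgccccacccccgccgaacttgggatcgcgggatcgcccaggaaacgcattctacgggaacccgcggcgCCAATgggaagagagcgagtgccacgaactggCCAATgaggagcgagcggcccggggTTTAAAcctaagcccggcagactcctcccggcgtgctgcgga
Ttk: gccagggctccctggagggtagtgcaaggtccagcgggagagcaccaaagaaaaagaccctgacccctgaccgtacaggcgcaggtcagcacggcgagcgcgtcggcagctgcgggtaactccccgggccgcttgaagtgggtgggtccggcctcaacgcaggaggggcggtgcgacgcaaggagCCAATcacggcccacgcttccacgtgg
Hist1h3b: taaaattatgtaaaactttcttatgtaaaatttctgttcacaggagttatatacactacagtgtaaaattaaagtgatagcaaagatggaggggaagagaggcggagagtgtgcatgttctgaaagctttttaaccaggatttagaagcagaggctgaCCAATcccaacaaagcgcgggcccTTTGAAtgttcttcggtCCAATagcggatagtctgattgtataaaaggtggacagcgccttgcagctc

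The *Ccnb1* window held 2 CCAAT boxes that began 99 and 67 bases before the start site and a TTTAAA that began 42 bases before it. The *Hist1h3b* window held 2 CCAAT boxes, at 92 and 51 bases, and a TTTGAA between them at 68 bases. The *Ttk* window held 2 CCAAT boxes, at 65 bases (printed) and at 28 bases (past the printed bases), and a TTTGAA on the opposite strand just after the start site, which is not printed either. The window of *Cdc25b* starts inside the annotated gene, so it is not printed. It held a CCAAT box on the opposite strand, at 28 bases before the start site of the window. Of the 32851 windows in the table, 33.8% held CCAAT in the 250 upstream bases, 10.1% held it at least 2 times, 16% held TTTGAA and 12.1% held TTTAAA. These matches describe the letters only.

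Values are normalized counts, that is, the deposited probe signals scaled to 15 reference genes, with a common floor of 27.1. A change is a limma adjusted p under 0.05 over all tested panel genes, and fold changes are differences of log2(normalized count + 1). The smallest p of an exact two-sided permutation test per gene is 0.1 with 3 samples a group. The recovered counts above the floor summed to between 641790 and 1081646 per sample. The AKT Cre/NRAS SCR libraries stood apart: *Rpl19* over *Polr2a*, as a log2 ratio, stood at 5.48, 6.36 and 6.88, against 4.72 to 5.03 in AKT Cre/NRAS siRNA, 3.86 to 3.92 in AKT/NRAS siRNA and 3.81 to 3.87 in AKT/NRAS SCR. *Rpl19* is 1 of the 15 reference genes, and the part of this spread in the results below was not tested beyond the other scalings and the left-out libraries given with them. The labels held where they could be checked: *Akt1* was lower in AKT Cre/NRAS than in AKT/NRAS under SCR (log2 fold change -5.68, limma adjusted p = 1.35e-09), and *Dusp4* fell after siRNA in AKT Cre/NRAS (-0.45, limma adjusted p = 0.0178) and in AKT/NRAS (-1.73, limma adjusted p = 1.13e-06). *Dusp4* had 4126, 4174 and 3769 normalized counts in AKT Cre/NRAS siRNA, against 6343, 5843 and 4483 in AKT Cre/NRAS SCR, and 350, 389 and 371 in AKT/NRAS siRNA, against 1273, 1226 and 1186 in AKT/NRAS SCR, so the silencing was shallower in AKT Cre/NRAS (difference 1.28, interaction term of limma, adjusted p = 7.28e-04). In the deposited values, *Dusp4* in AKT Cre/NRAS was at 3913, 4527 and 4548 after siRNA, against 7180, 8290 and 4154 after SCR. SCR replicate 3 thus lay within the siRNA values before the scaling to reference genes. The myeloid marker *Csf1r* and the endothelial marker *Kdr* were at the floor in all 12 samples. Of the biliary or progenitor markers, *Spp1* had 101245 to 115311 normalized counts in AKT Cre/NRAS siRNA, 119863 to 161485 in AKT Cre/NRAS SCR, 16928 to 19518 in AKT/NRAS siRNA and 14872 to 15529 in AKT/NRAS SCR, and makes up nearly all of the list's sum. *Prom1* was at the floor in AKT/NRAS and at 37.9 to 72.5 in AKT Cre/NRAS, while *Sox9* was higher in AKT Cre/NRAS under siRNA (log2 fold change 0.64, limma adjusted p = 0.00169) and had -0.22 under SCR (limma adjusted p = 0.180). The part of these markers in the line differences was not tested. In bulk RNA, a smaller share of cells in G2 or mitosis and less transcript per such cell cannot be told apart.

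Of the trigger itself little can be said, since *Ccnb1*, the cyclin that activates CDK1, stood at the common floor in all 12 samples. Its deposited value was the floor of 20 in 10 samples. The 2 exceptions were AKT Cre/NRAS SCR replicates 1 and 2, with deposited values of 23.45 and 25.41, which come to 22 and 20 counts. The highest negative control had 14 and 12 counts in these libraries, so both values lay above their own background, but after scaling they fell under the common floor and *Ccnb1* was not tested. The panel's other B-type cyclin, *Ccnb3*, and the germline cyclin *Ccna1* were at the floor in all 12 samples as well. *Ccna2*, cyclin A2 of S phase and G2, was measured at 786 to 1049 normalized counts in AKT Cre/NRAS and at 452 to 683 in AKT/NRAS.

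*Cdc25c*, a phosphatase that activates CDK1 at mitotic entry, separated the lines. Its normalized counts were 196, 169 and 165 in AKT Cre/NRAS siRNA, 178, 151 and 161 in AKT Cre/NRAS SCR, 74.5, 81.3 and 73.8 in AKT/NRAS siRNA, and 78.2, 68.4 and 76.6 in AKT/NRAS SCR. All 6 AKT Cre/NRAS samples lay above all 6 AKT/NRAS samples, and within each line the siRNA and SCR samples overlapped. Between the lines the log2 fold change was 1.19 under *Dusp4* siRNA (standard error 0.09, limma adjusted p = 1.28e-05) and 1.12 under SCR (standard error 0.11, limma adjusted p = 2.25e-05), folds of 2.29 and 2.18. The siRNA response was 0.11 in AKT Cre/NRAS (95% interval -0.17 to 0.39, limma adjusted p = 0.493) and 0.04 in AKT/NRAS (95% interval -0.15 to 0.23, limma adjusted p = 0.812). It had the lowest counts of the tested members, down to 59, which alone is a counting error of 13.0%.

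*Cdc25b*, the phosphatase thought to start the activation of CDK1 at the centrosome, responded to siRNA in 1 of the lines. It had 593, 602 and 523 normalized counts in AKT Cre/NRAS siRNA, against 494, 454 and 346 in AKT Cre/NRAS SCR. In AKT/NRAS it had 366, 343 and 371 after siRNA, against 365, 355 and 386 after SCR. The siRNA samples of AKT Cre/NRAS lay above every other sample, and SCR replicate 3 of that line was as low as the AKT/NRAS samples. In the deposited values the siRNA and SCR samples of AKT Cre/NRAS overlapped. They were at 562, 653 and 631 after siRNA, against 559, 644 and 320 after SCR. The gene rose in AKT Cre/NRAS by 0.42 on the log2 scale (standard error 0.14, limma adjusted p = 0.0295) and was at -0.03 in AKT/NRAS (95% interval -0.17 to 0.10, limma adjusted p = 0.757), and the responses differed by 0.46 (interaction term of limma, adjusted p = 0.0408), a call lost without siRNA replicate 1 or 2 of AKT Cre/NRAS or any 1 of the 6 AKT/NRAS libraries (limma adjusted p = 0.0569 to 0.0854). Without SCR replicate 3 the rise was 0.27 (limma adjusted p = 0.0282), and it lost its call without any 1 of the siRNA replicates (limma adjusted p = 0.0531 to 0.107) or without SCR replicate 2 (limma adjusted p = 0.0559). AKT Cre/NRAS exceeded AKT/NRAS by 0.67 under siRNA (limma adjusted p = 7.25e-05). Under SCR the difference was 0.21 (95% interval -0.10 to 0.52, limma adjusted p = 0.185), or 0.36 without SCR replicate 3 of AKT Cre/NRAS (limma adjusted p = 0.00375). Over 7 scalings the SCR difference ranged between -0.21 and 0.71, was above 0 in 5 and passed the threshold in 4.

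*Wee1*, the kinase that opposes the CDC25 phosphatases, varied least between groups. Its normalized counts were 125, 150 and 122 in AKT Cre/NRAS siRNA, 131, 121 and 106 in AKT Cre/NRAS SCR, 136, 124 and 124 in AKT/NRAS siRNA, and 149, 157 and 147 in AKT/NRAS SCR. The AKT/NRAS SCR samples were higher than those of AKT/NRAS siRNA and of AKT Cre/NRAS SCR, with no overlap. This order came with the scaling. In the deposited values AKT/NRAS was at 129.35, 131.21 and 129.23 after siRNA, against 127.34, 128.52 and 108.85 after SCR. Under SCR, *Wee1* was lower in AKT Cre/NRAS (log2 fold change -0.34, standard error 0.11, limma adjusted p = 0.0211), and under siRNA the difference was 0.04 (95% interval -0.19 to 0.27, limma adjusted p = 0.720). The SCR difference lost its call without SCR replicate 3 of AKT Cre/NRAS (-0.26, limma adjusted p = 0.0522) or without SCR replicate 1 or 2 of AKT/NRAS (-0.35 and -0.32, limma adjusted p = 0.0522 and 0.0817), and it was 0.16 with the values as deposited and 0.01 after re-centring on the median. The siRNA response was 0.15 in AKT Cre/NRAS (limma adjusted p = 0.393) and -0.23 in AKT/NRAS (limma adjusted p = 0.0657). The responses differed by 0.38 (interaction term of limma, adjusted p = 0.0464), a call that held without siRNA replicate 3 or SCR replicate 1 of AKT Cre/NRAS and was lost without any 1 of the other 10 libraries (limma adjusted p = 0.05 to 0.104).

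*Ttk*, the kinase of the spindle checkpoint, was higher in AKT Cre/NRAS, like *Cdc25c*. It had 213, 187 and 177 normalized counts in AKT Cre/NRAS siRNA and 199, 192 and 162 in AKT Cre/NRAS SCR. It had 114, 113 and 114 in AKT/NRAS siRNA and 88.9, 96.2 and 99.8 in AKT/NRAS SCR. The lowest AKT Cre/NRAS sample lay above the highest AKT/NRAS sample, and the AKT/NRAS siRNA samples lay above those of SCR. The lines differed by 0.75 under siRNA (standard error 0.08, limma adjusted p = 1.16e-04) and by 0.94 under SCR (standard error 0.12, limma adjusted p = 9.22e-05). After siRNA *Ttk* rose in AKT/NRAS by 0.26 (standard error 0.07, limma adjusted p = 0.0481), a call lost without any 1 of the 6 libraries (limma adjusted p = 0.0552 to 0.147). In AKT Cre/NRAS the response was 0.07 (95% interval -0.22 to 0.35, limma adjusted p = 0.706), and the difference of the responses, -0.19, did not pass (interaction term of limma, adjusted p = 0.264).

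*Stmn1* ran the other way between the lines. The normalized counts were 1352, 1495 and 1523 in AKT Cre/NRAS siRNA, 1557, 1811 and 2022 in AKT Cre/NRAS SCR, 3776, 4127 and 4041 in AKT/NRAS siRNA, and 3720, 3927 and 3808 in AKT/NRAS SCR. Every AKT Cre/NRAS sample lay below every AKT/NRAS sample, and within AKT Cre/NRAS the siRNA samples lay below those of SCR. In the deposited values the siRNA and SCR samples of AKT Cre/NRAS overlapped, at 1283, 1621 and 1838 against 1762, 2569 and 1874. The line difference was -1.45 under siRNA (standard error 0.06, limma adjusted p = 3.32e-07) and -1.10 under SCR (standard error 0.10, limma adjusted p = 1.44e-05). After siRNA *Stmn1* fell in AKT Cre/NRAS by 0.30 (standard error 0.11, limma adjusted p = 0.0425) and was at 0.06 in AKT/NRAS (95% interval -0.04 to 0.15, limma adjusted p = 0.387), a difference in response of -0.36 (interaction term of limma, adjusted p = 0.0338), which lost its call when any 1 of 3 AKT Cre/NRAS libraries (siRNA replicates 1 and 2, SCR replicate 2) or of 4 AKT/NRAS libraries (siRNA replicates 2 and 3, SCR replicates 1 and 3) was left out (limma adjusted p = 0.0508 to 0.0813). The fall was -0.21 without SCR replicate 3 (limma adjusted p = 0.0471), and it lost its call without any 1 of the siRNA replicates (limma adjusted p = 0.0777 to 0.165) or without SCR replicate 2 (limma adjusted p = 0.117).

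*Hist1h3b*, a replication-dependent histone H3 gene, had the largest positive line difference of the 6 tested members under SCR. Its normalized counts were 31727, 25019 and 23371 in AKT Cre/NRAS siRNA, 33779, 37539 and 44793 in AKT Cre/NRAS SCR, 15246, 13359 and 13217 in AKT/NRAS siRNA, and 12605, 14242 and 13762 in AKT/NRAS SCR. All AKT Cre/NRAS samples lay above all AKT/NRAS samples, and the siRNA samples of AKT Cre/NRAS lay below its SCR samples. The deposited siRNA and SCR values of AKT Cre/NRAS did not overlap either. The line difference was 0.93 under siRNA (standard error 0.12, limma adjusted p = 2.16e-04) and 1.51 under SCR (standard error 0.13, limma adjusted p = 9.06e-06). After siRNA the gene fell in AKT Cre/NRAS by 0.54 (standard error 0.15, limma adjusted p = 0.0198) and was at 0.04 in AKT/NRAS (95% interval -0.11 to 0.20, limma adjusted p = 0.750). The responses differed by -0.58 (interaction term of limma, adjusted p = 0.0252), which lost its call without siRNA replicate 2 or 3 of AKT Cre/NRAS or replicate 1 of either AKT/NRAS group (limma adjusted p = 0.0566 to 0.0623). The fall was -0.43 without SCR replicate 3 (limma adjusted p = 0.00311), and it lost its call when siRNA replicate 2 or 3 (limma adjusted p = 0.0830 and 0.0915) or SCR replicate 2 was left out (limma adjusted p = 0.0559).

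Histone H3 genes are near-identical in sequence, so the *Hist1h3b* probe may also read its paralogs. The probe of *Hist2h3b* followed it with a log2 ratio of 1.39 to 1.51 in all 12 samples and the same calls in all 5 comparisons. Together they took 9.88 to 13.0% of the recovered counts in AKT Cre/NRAS siRNA, 13.7 to 15.4% in AKT Cre/NRAS SCR, 6.70 to 7.74% in AKT/NRAS siRNA and 6.07 to 6.86% in AKT/NRAS SCR. The pair is best read as 1 measurement. A further H3 probe, *Hist2h3c2*, did not follow the pair: it had 44.4 to 107 normalized counts and was not called in any of the 5 comparisons. Its line difference was -0.35 under siRNA (limma adjusted p = 0.0918) and 0.22 under SCR (limma adjusted p = 0.462). Which paralogs each probe reads was not tested. *H3f3a*, which encodes the replacement histone H3.3 made throughout the cycle, was lower in AKT Cre/NRAS under siRNA (log2 fold change -0.89, limma adjusted p = 1.53e-06), where *Hist1h3b* was higher, and had -0.36 under SCR (limma adjusted p = 0.118). After siRNA in AKT Cre/NRAS *H3f3a* fell as *Hist1h3b* did, by 0.54 (limma adjusted p = 0.0336). Its normalized counts there were 15302, 16494 and 16735 after siRNA, against 17662, 22966 and 31701 after SCR. The SCR replicates were thus widely spread, and the lowest of them lay near the siRNA samples.

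**Figure D1:**
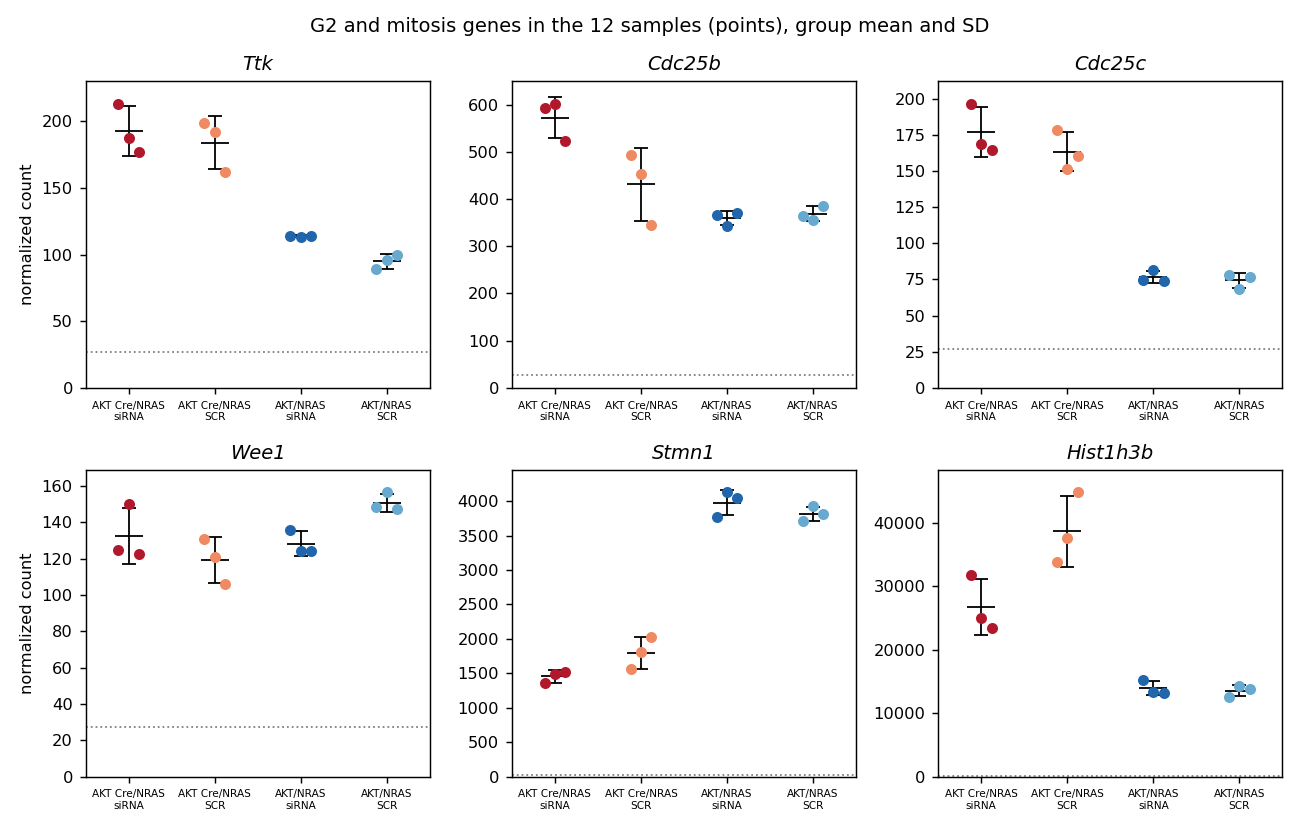
Normalized counts (linear axes from 0) of the 6 members above the floor, with 3 samples per group as points and the group mean and SD in black. Above the common floor of 27.1 (dotted line), *Ttk*, *Cdc25c* and *Hist1h3b* are higher and *Stmn1* is lower in every AKT Cre/NRAS sample than in any AKT/NRAS sample.

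Between AKT Cre/NRAS and AKT/NRAS under siRNA, 4 members were higher, 1 was lower and 1 was not called, where 36.6% of the 522 tested genes were higher and 37.9% lower. Under SCR, 3 were higher, 2 lower and 1 not called, where 28.9% of 515 tested genes were higher and 48% lower. Under SCR, re-centring on the median gave 224 higher and 181 lower genes, against 149 and 247 with the reference genes. The median log2 fold change of the 6 members was 0.71 under siRNA and 0.58 under SCR, against 0.00 and -0.22 over all tested genes. Most tested panel genes differed between the lines, so a call alone does not set a member apart there. *Cdc25c*, *Stmn1* and *Hist1h3b* passed the threshold with the same sign under all 7 scalings in both line comparisons. *Ttk* and *Cdc25b* did so under siRNA, and under SCR they passed in 6 and 4 of the 7. *Wee1* passed in 3 of the 7 under SCR and in none under siRNA.

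After *Dusp4* siRNA in AKT Cre/NRAS, 1 member rose, 2 fell and 3 were not called, where 40.6% of the 503 tested genes rose and 5.37% fell. The median of the members was 0.09, against 0.23 over all tested genes. Over the SCR replicates of this line *Stmn1* and *Hist1h3b* rose and *Cdc25b* fell in the order in which *Rpl19* over *Polr2a* rose. Over its siRNA replicates *Stmn1* rose in that order as well, while *Hist1h3b* fell. The part of that spread in these calls was not tested. In AKT/NRAS, 1 member rose and 5 were not called, where 5.44% of the 496 tested genes rose and 11.9% fell, and the medians were 0.04 and -0.03. In the interaction, 2 members were higher, 2 lower and 2 not called, where 40.6% of the 525 tested genes were higher and 4.76% lower, and the medians were -0.06 for the members and 0.25 for all tested genes. Re-centring each sample on the median moved the direction of these calls: 32 genes then rose and 136 fell after siRNA in AKT Cre/NRAS, against 204 and 27 above, 47 rose and 41 fell in AKT/NRAS, against 27 and 59, and 50 were higher and 151 lower in the interaction, against 213 and 25.

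These siRNA calls depended on how the samples were scaled. In AKT Cre/NRAS the response of *Cdc25b* ranged between 0.07 and 0.87 over 7 scalings and passed in 3, *Stmn1* between -0.65 and 0.16 and passed in 4, and *Hist1h3b* between -0.89 and -0.09 and passed in 3. With the values as deposited, no member passed there, nor did any with the Benjamini-Yekutieli adjustment that the study's methods name. For *Stmn1* 1 scaling, the 5 reference genes ranked first, turned the sign. In AKT/NRAS the values as deposited placed all 6 members above 0, and 5 of them passed, the exception being *Wee1*. *Ttk* passed in 3 of the 7 there, with a range of 0.20 to 0.59. *Wee1*, not called there under the main scaling, also passed in 3, with a range of -0.27 to 0.10.

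**Figure D2:**
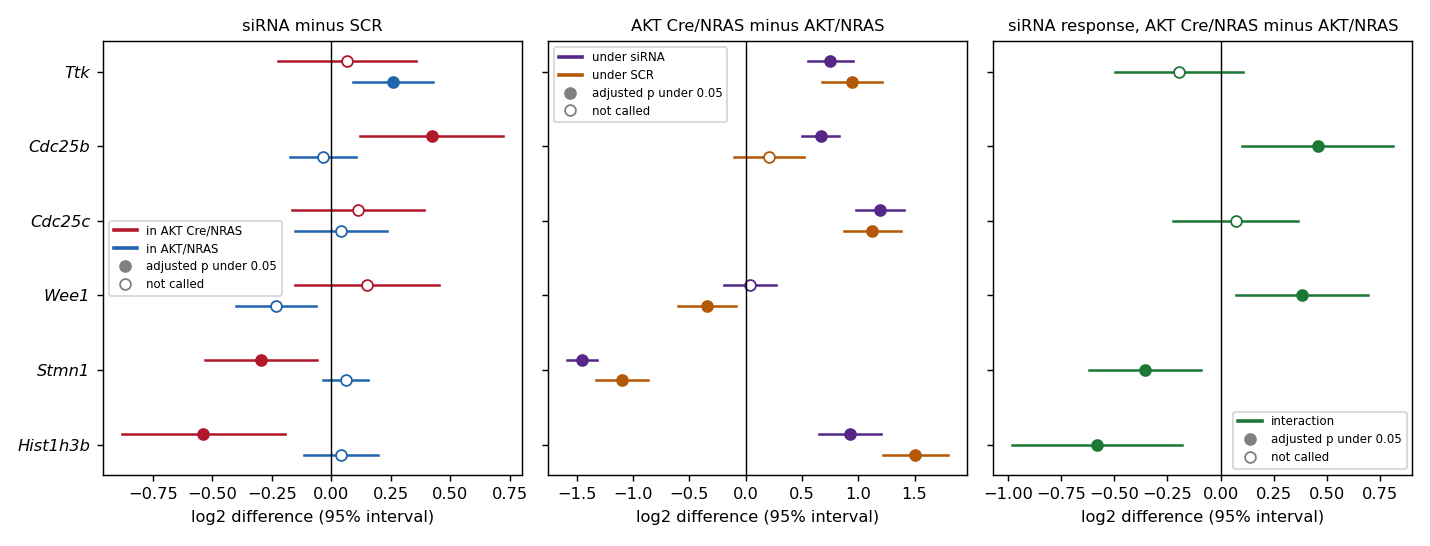
Log2 differences with 95% intervals from limma for the 6 tested members, for *Dusp4* siRNA minus SCR in each line, AKT Cre/NRAS minus AKT/NRAS under siRNA and under SCR, and the interaction. Filled points passed an adjusted p under 0.05. The siRNA responses all lie within 0.54 of 0, and the line differences of *Stmn1* lie at -1.45 under siRNA and -1.10 under SCR.

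**Figure D3:**
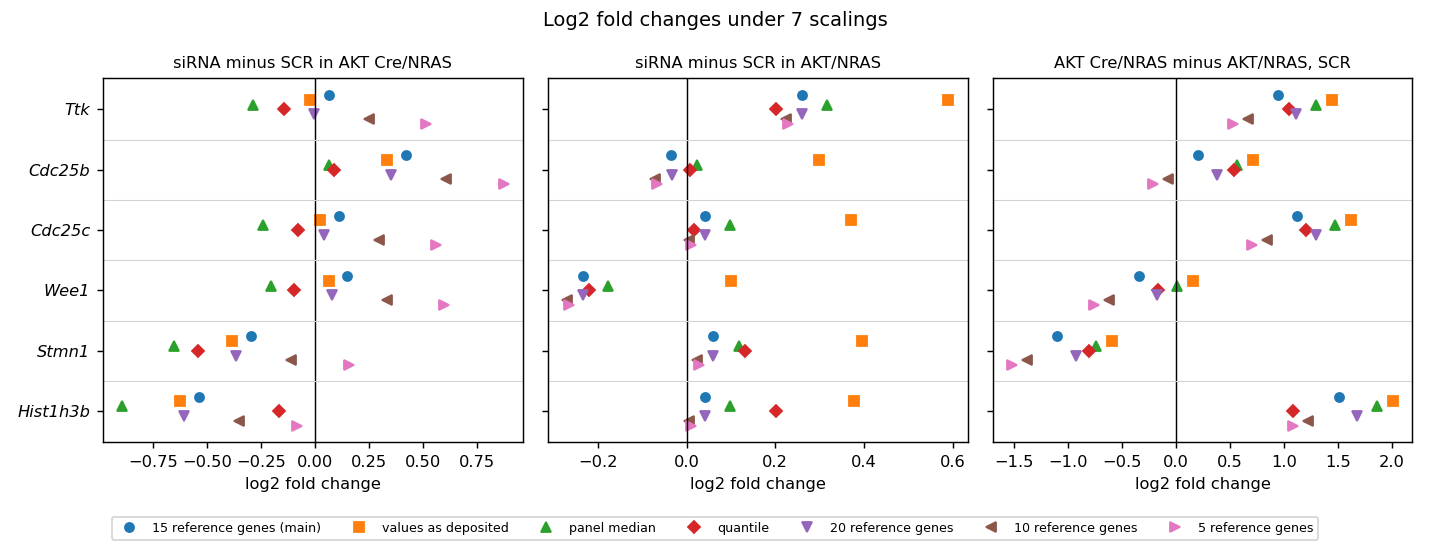
Log2 fold changes of the 6 members under the main scaling and 6 other scalings (symbols), for siRNA minus SCR in AKT Cre/NRAS and in AKT/NRAS and for AKT Cre/NRAS minus AKT/NRAS under SCR. In AKT Cre/NRAS the siRNA response of *Ttk*, *Cdc25c*, *Wee1* and *Stmn1* falls on both sides of 0, while the line difference of *Ttk*, *Cdc25c*, *Stmn1* and *Hist1h3b* keeps its sign.

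A ratio of a pair of probes within a sample does not depend on the scaling of that sample. Its height also reflects the probes, so only differences between groups are read, and the 3 ratios were chosen after the values had been seen. The log2 ratio of *Cdc25b* to *Wee1*, the activating phosphatase over the inhibitory kinase, was 2.25, 2.00 and 2.09 in AKT Cre/NRAS siRNA, against 1.91, 1.91 and 1.71 in AKT Cre/NRAS SCR. It was 1.43, 1.46 and 1.57 in AKT/NRAS siRNA, against 1.30, 1.18 and 1.39 in AKT/NRAS SCR. The ratio was higher after siRNA than after SCR in both lines, by 0.27 in AKT Cre/NRAS and 0.20 in AKT/NRAS, with no overlap between the groups. It was also higher in AKT Cre/NRAS than in AKT/NRAS, by 0.63 under siRNA and 0.55 under SCR.

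The log2 ratio of *Cdc25c* to *Wee1* averaged 0.42 ± 0.24 in AKT Cre/NRAS siRNA, 0.46 ± 0.14 in AKT Cre/NRAS SCR, -0.75 ± 0.13 in AKT/NRAS siRNA and -1.02 ± 0.15 in AKT/NRAS SCR (SD, n = 3 each). The lines did not overlap under either treatment, with differences of 1.16 under siRNA and 1.48 under SCR. After siRNA it was higher than after SCR in AKT/NRAS, by 0.28 with no overlap, and within the spread of the replicates in AKT Cre/NRAS, at -0.04. The log2 ratio of *Cdc25b* to *Stmn1* was -1.19, -1.31 and -1.54 in AKT Cre/NRAS siRNA, against -1.66, -2.00 and -2.55 in AKT Cre/NRAS SCR, a difference of 0.72 with no overlap. In AKT/NRAS the difference was -0.09 and the groups overlapped. Within both AKT Cre/NRAS groups this ratio fell from replicate 1 to replicate 3, while *Rpl19* over *Polr2a* rose. The rise was from 4.72 to 5.03 in the siRNA group and from 5.48 to 6.88 in the SCR group. A ratio cancels the scaling factor of a sample but not such a spread, and its part in the 0.72 was not tested. Each of these group differences without overlap has the smallest exact two-sided permutation p of 3 against 3 samples, 0.1.

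**Figure D4:**
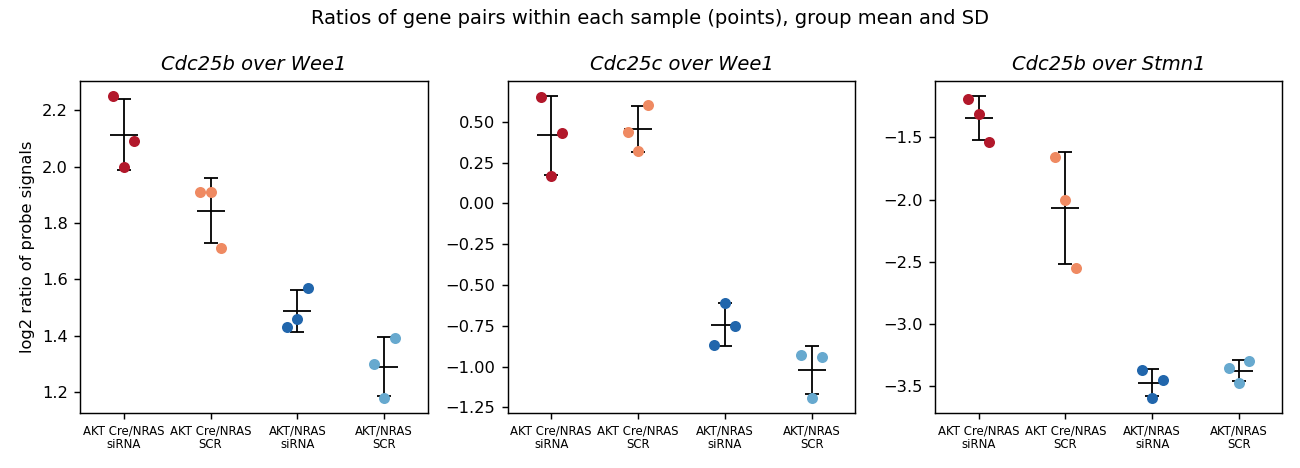
Log2 ratios of probe signals within each sample for 3 gene pairs, with 3 samples per group as points and the group mean and SD in black. *Cdc25b* over *Wee1* is higher in siRNA than in SCR samples in both lines, and *Cdc25c* over *Wee1* is higher in every AKT Cre/NRAS sample than in any AKT/NRAS sample.

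Related genes of the panel were read from lists of the same stages of the cycle. Between the lines, 36.6% of all tested genes were higher and 37.9% lower under siRNA, and 28.9% were higher and 48% lower under SCR. Of 8 other mitotic cyclins, kinases and checkpoint genes on the panel, 6 were above the floor. In the line comparisons, 2 were higher (*Ccna2* and *Top2a*), 2 were lower (*Mad2l2* and *Cdc14b*) and 2 were not called (*Pkmyt1* and *Cdc14a*) under siRNA, and the same genes were called in the same directions under SCR. *Top2a*, the topoisomerase that untangles sister chromatids, had log2 fold changes of 0.77 under siRNA (limma adjusted p = 1.71e-05) and 0.63 under SCR (limma adjusted p = 0.00134). *Mad2l2*, which encodes a relative of the checkpoint protein MAD2, had -0.72 under siRNA (limma adjusted p = 9.27e-05) and -1.08 under SCR (limma adjusted p = 2.02e-05). *Pkmyt1*, the membrane-bound kinase that shares the CDK1 target with WEE1, had 0.21 and 0.24 (limma adjusted p = 0.113 in both). After siRNA, none of the 6 was called in AKT Cre/NRAS, where *Top2a* (0.31, limma adjusted p = 0.0501) and *Ccna2* (-0.24, limma adjusted p = 0.0524) came nearest at the threshold and 204 of 503 tested genes rose. In AKT/NRAS *Ccna2* fell by 0.52 (limma adjusted p = 0.00161) and the other 5 were not called, where 11.9% of all tested genes fell. The responses of *Ccna2* (0.28, adjusted p = 0.0330) and *Mad2l2* (0.35, adjusted p = 0.0422) differed between the lines by the interaction term of limma, where 40.6% of all tested genes were higher.

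The genes of the G2 checkpoint, which holds WEE1 active and CDC25 inactive after DNA damage, gave 9 measured members of 10, with *Sfn* at the floor. Between AKT Cre/NRAS and AKT/NRAS, 1 was higher and 3 lower under siRNA, and 1 was higher and 4 lower under SCR. Among all tested genes 36.6% were higher and 37.9% lower under siRNA, and 28.9% were higher and 48% lower under SCR. *Chek1*, the kinase that phosphorylates CDC25 phosphatases, was the higher gene, by 0.32 under siRNA (limma adjusted p = 0.0317) and 0.92 under SCR (limma adjusted p = 0.00307). *Gadd45b*, a stress gene whose product can inhibit CDK1, was lower by the largest step, with -2.67 under siRNA (limma adjusted p = 1.02e-06) and -2.68 under SCR (limma adjusted p = 4.43e-08). *Atr*, the kinase upstream of *Chek1*, was lower in both, at -0.35 (limma adjusted p = 0.0102) and -0.68 (limma adjusted p = 4.36e-04).

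After siRNA in AKT Cre/NRAS, 3 of the 9 rose (*Atm*, *Trp53* and *Cdkn1a*), 1 fell (*Gadd45a*) and 5 were not called. Among all tested genes 40.6% rose and 5.37% fell there, so the list does not stand apart by its rises. In AKT/NRAS 1 rose (*Trp53*, 0.19), 2 fell (*Cdkn1a*, -0.36, and *Gadd45a*, -0.22) and 6 were not called, where 5.44% of all tested genes rose and 11.9% fell. *Cdkn1a*, the cyclin-dependent kinase inhibitor p21, thus had opposite signs in the lines: 0.41 in AKT Cre/NRAS (limma adjusted p = 0.0425) and -0.36 in AKT/NRAS (limma adjusted p = 0.00161), a difference of 0.77 (interaction term of limma, adjusted p = 0.00809). In the deposited values the siRNA and SCR samples of *Cdkn1a* overlapped in both lines. They were 4759, 5459 and 5226 against 4827, 5587 and 2548 in AKT Cre/NRAS, and 4244, 5015 and 4672 against 5139, 4832 and 4183 in AKT/NRAS. *Wee1* had the same signs under the main scaling, although neither of its responses passed. Over the 7 scalings its response ranged between -0.20 and 0.60 in AKT Cre/NRAS and passed in none. In AKT/NRAS it ranged between -0.27 and 0.10 and passed in 3.

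Of the cohesin genes, which hold sister chromatids together until anaphase, 4 of 5 were measured. *Smc3*, *Rad21* and *Stag2* were higher in AKT Cre/NRAS than in AKT/NRAS under siRNA (1.12, 0.39 and 0.58) and under SCR (0.74, 0.31 and 0.39), while *Smc1a* had 0.05 under siRNA and was lower under SCR (-0.63, limma adjusted p = 7.57e-04). After siRNA in AKT Cre/NRAS, *Smc1a* (0.65, limma adjusted p = 0.00355) and *Smc3* (0.39, limma adjusted p = 0.0196) rose, as did 40.6% of all tested genes. None of the 4 was called in AKT/NRAS. None of the 16 listed genes of the anaphase-promoting complex and its targets was measured here.

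**Figure D5:**
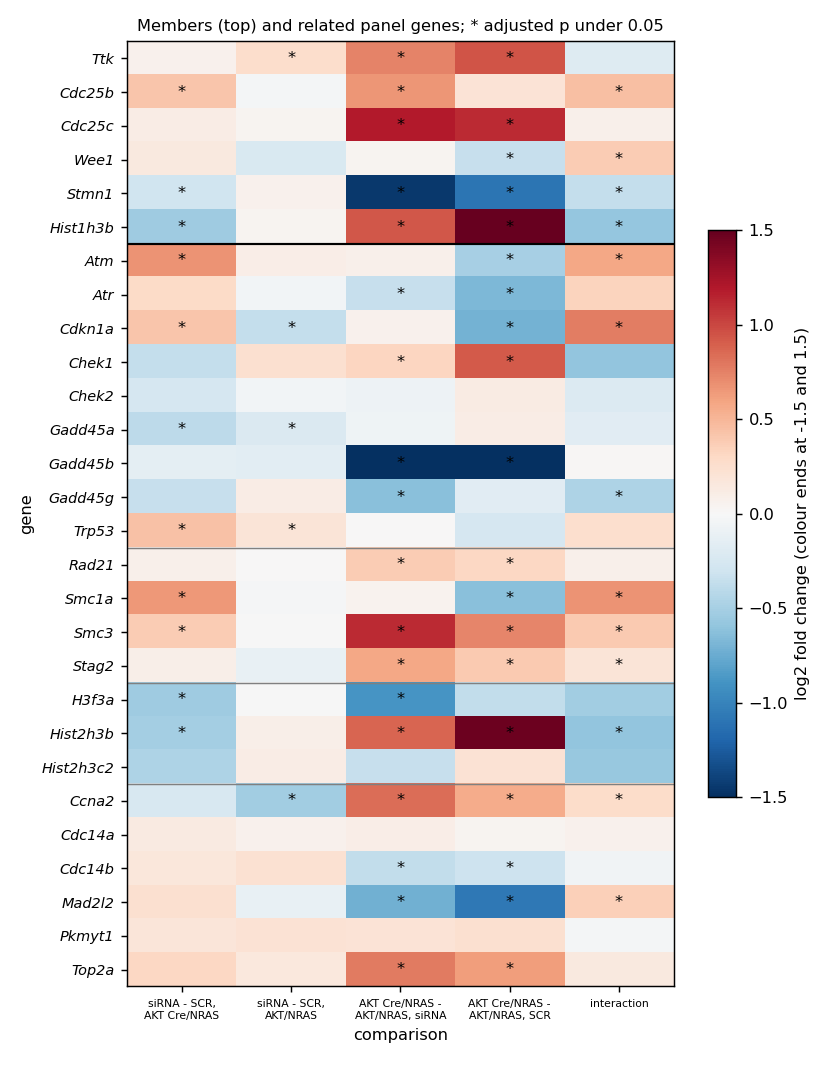
Log2 fold changes (colour, ends at -1.5 and 1.5) of the 6 tested members (top block) and of the measured genes of the G2 checkpoint, cohesin, histone H3 and mitotic lists (blocks below) in the 5 comparisons, with an asterisk at an adjusted p under 0.05. *Hist2h3b* carries the same colours as *Hist1h3b*, and the column of siRNA minus SCR in AKT/NRAS is the palest.

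Of 20 genes of S phase and replication on the panel, 19 were above the floor in at least 1 sample and 17 to 19 were tested in a comparison. Under siRNA 8 were higher, 5 lower and 6 not called in AKT Cre/NRAS, and under SCR 10 were higher, 4 lower and 4 not called. Over all tested genes the shares were 36.6% higher and 37.9% lower under siRNA, and 28.9% higher and 48% lower under SCR. *Rfc4*, a subunit of the clamp loader, was higher by 0.57 under siRNA (limma adjusted p = 4.76e-04) and by 1.15 under SCR (limma adjusted p = 1.91e-04). *Rpa3*, a subunit of the single-strand binding complex, was lower at -2.44 under siRNA (limma adjusted p = 7.85e-09) and -1.68 under SCR (limma adjusted p = 1.80e-04). After siRNA in AKT Cre/NRAS, 2 rose and 5 fell, where 40.6% of all tested genes rose and 5.37% fell. The largest step was *Ccne2*, cyclin E2, at -1.02 (limma adjusted p = 0.00460). Its normalized counts were 48.0, 52.3 and 50.9 after siRNA, against 78.2, 95.8 and 145 after SCR. Over these SCR replicates *Ccne2* rose in the same order as *Rpl19* over *Polr2a*. So did *Rpa3*, *Rfc3*, *Rfc4* and *Pcna*, which also fell after siRNA in this line. The part of that spread was not tested. In AKT/NRAS 5 rose and none fell, among them *Mcm7* (0.27, limma adjusted p = 0.00816), a subunit of the replicative helicase. There 5.44% of all tested genes rose and 11.9% fell.

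Over the 12 samples, the panel genes most like each member in log2 normalized count were found among 446 genes above the floor throughout. *Cdc25c* was most like *Vegfc* (Pearson r = 0.991), *Hmga1* (0.990) and *Egfr* (0.990), and *Ttk* was most like *Hells* (0.978), *Fgfr4* (0.975) and *Spry1* (0.970). *Stmn1* was most like *Rpa3* (0.991), *Aph1b* (0.989) and *Gadd45b* (0.980), all 3 of which are lower in AKT Cre/NRAS. *Cdc25b* was most like *Men1* (0.957), *Creb3l1* (0.949) and *Efna5* (0.946). *Hist1h3b* was most like *Hist2h3b* (0.9995), *Npm1* (0.973) and *Fancl* (0.968). *Wee1* had the weakest likenesses, to *Cdkn1a* (0.878), *Numbl* (0.855) and *Rb1* (0.841). The 12 samples share 1 scaling and come from a pair of lines, and the parts of r within and between the lines were not separated.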

How the data were processed

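Total RNA of 12 samples was hybridised to a NanoString nCounter mouse cancer pathway panel. The deposited signal values are barcode counts that the authors scaled to positive controls in nSolver, with low values raised to a floor of 20, and dividing by each sample's factor gave whole counts above the floor (within 0.05). The reference gene step of the study's methods was not in these values, so it was applied here: 15 of the 20 reference genes were kept by geNorm, and a common floor of 27.1 was set. Genes above the floor in at least 1 sample of a comparison were tested on log2(value + 1) in R 4.3.3, where limma 3.58.1 fitted only the samples of that comparison, moderated the variances with an intensity trend and adjusted p by Benjamini-Hochberg. Figures were drawn with matplotlib 3.10.9. The fits were tested on simulated data.

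The members and gene lists, and the scaling, were chosen with earlier results of these data known. Named genes were the 7 members, *Dusp4*, of each list up to 4 genes with the smallest p in a comparison and any that make up a count of 5 or fewer, and the 3 genes most like each member, with *Akt1* as the check of the line labels. Groups came from the sample labels. Same-numbered siRNA and SCR samples of AKT Cre/NRAS deviated together over 446 genes (r = 0.221, 0.116 and 0.229) and were treated as pairs in an alternative with a replicate block, which left the 3 member calls there in place. Alternatives changed the scaling, filter, pseudocount, adjustment and fit, or left out 1 library. The alternative adjustment, Benjamini-Yekutieli, is the one that the study's methods name. Some cell type markers are not reported here.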

Additional observations from a re-analysis of the deposited data

Results flagged for a closer look

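The siRNA response of 4 members differed between AKT Cre/NRAS and AKT/NRAS by the interaction term of limma (response in AKT Cre/NRAS minus response in AKT/NRAS, log2 scale). Such calls were common on the panel: 40.6% of the 525 tested genes were higher and 4.76% lower in this term. The difference was 0.46 for *Cdc25b* (adjusted p = 0.0408), 0.38 for *Wee1* (adjusted p = 0.0464), -0.36 for *Stmn1* (adjusted p = 0.0338) and -0.58 for *Hist1h3b* (adjusted p = 0.0252). Over 7 scalings these differences ranged between 0.03 and 0.94, -0.04 and 0.86, -0.78 and 0.13, and -1.0 and -0.10, and passed the threshold in 3, 3, 4 and 4 of them.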

How the results depend on the processing

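The limits of these results lie in the scaling and in single libraries, and counting error reached 13.0% at the lowest *Cdc25c* count. The 5 line differences under siRNA passed under every alternative run. Under SCR 4 or 5 members changed throughout, but not always the same ones. Over the 7 scalings *Wee1* passed there in 3, *Cdc25b* in 4 and *Ttk* in 6. After siRNA in AKT Cre/NRAS, 3 members changed, against 0 with the values as deposited, with no filter on low values or with Benjamini-Yekutieli adjustment, 1 with quantile normalization, 10 or 5 reference genes, and 0 to 3 with 1 library left out. In AKT/NRAS 1 changed, against 5 as deposited, 2 with quantile normalization or without the intensity trend, and 0 with all 20 reference genes, no filter, only genes above the floor in every sample, Benjamini-Yekutieli adjustment, a single fit over all 4 groups or 1 library left out (0 to 0). With a replicate block 0 members changed in AKT/NRAS, and the number of members changed was the same in the other 4 comparisons. In the interaction 4 differed, against 1 as deposited, 2 with quantile normalization, all 20, 10 or 5 reference genes, 0 with no filter or Benjamini-Yekutieli adjustment, and 0 to 4 with 1 library left out. The number of panel genes changed was 231 after siRNA in AKT Cre/NRAS, against 1 as deposited and 88 with quantile normalization, 86 in AKT/NRAS, against 290 as deposited and 19 in a single fit, and 238 in the interaction, against 32 as deposited. The causes were not tested.

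Signs turned in these cases (log2 scale). After siRNA in AKT Cre/NRAS, *Ttk* was at -0.0213 as deposited, -0.29 re-centred on the median, -0.14 with quantile normalization, -0.0041 with all 20 reference genes and -0.0241 to 0.125 with 1 library left out. There *Cdc25c* was at -0.242 re-centred and -0.0777 with quantile normalization, *Wee1* at -0.20 and -0.10, and *Stmn1* at 0.16 with 5 reference genes. In AKT/NRAS, *Cdc25b* was at 0.30 as deposited, 0.0229 re-centred, 0.0073 with quantile normalization and -0.062 to 1e-04 with 1 library left out, *Wee1* was at 0.10 as deposited, *Cdc25c* was at -0.0181 to 0.0775 and *Hist1h3b* at -0.0248 to 0.0789 with 1 library left out. Between the lines under SCR, *Cdc25b* was at -0.069 with 10 and -0.21 with 5 reference genes, and *Wee1* at 0.16 as deposited and 0.0134 re-centred. Under siRNA *Wee1* was at -0.0131 re-centred, -0.0424 with quantile normalization, -0.0152 with 10 reference genes and -0.0501 to 0.10 with 1 library left out. In the interaction, *Ttk* was at 0.0269 with 10 and 0.29 with 5 reference genes, *Cdc25c* at -0.35 as deposited, -0.34 re-centred, -0.0943 with quantile normalization and -0.0074 to 0.13 with 1 library left out, *Wee1* at -0.0361 as deposited and -0.0265 re-centred, and *Stmn1* at 0.13 with 5 reference genes.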
